A study of Rattus norvegicus with 18 samples.

Results

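The genes described here encode the signalling chain downstream of leptin and interleukin-6 class receptors: the receptor subunits Il6r, Il6st and Osmr, the kinase Jak2, the transcription factor Stat3, and the inhibitors Cish, Socs2, Socs3 and Ptpn1. They were chosen by name, and every probe set (a group of short probes summarised as 1 signal) whose only gene symbol in the platform annotation was on that list was taken. Of the 9 listed genes, 8 were found in this way, with 14 of the 31042 probe sets that were not array controls. Osmr was not matched to a probe set with a single symbol and is not analysed here. A probe set was tested in a tissue when its mean log2 signal was in the upper 60% there, so the lowest mean signal tested was 88.9 in fat and 52.7 in hypothalamus. By this filter 10 probe sets of 6 genes were tested in both tissues, and the 4 others, including the only probe sets of Socs2 and Socs3, were not.

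RNA from rats was measured on 18 single-sample microarrays, 9 of subcutaneous abdominal fat and 9 of hypothalamus. Roux-en-Y gastric bypass (RYGB) is an operation that forms a small stomach pouch and connects it to a lower segment of small intestine. In each tissue 3 arrays came from RYGB-Success rats, which lost weight after the bypass, 3 from RYGB-Fail rats, which gained weight, and 3 from Pair-Fed rats, which received the amount of food that the treated rats ate. Success and Fail were therefore defined by the course of body weight and not by assignment, and the Pair-Fed rats were matched to the food intake of treated animals. Whether RYGB-Success and RYGB-Fail rats ate alike is not known from the values used here. The labels used here give no strain, age, sex or time after surgery, do not say whether Pair-Fed rats had a sham operation or whether a fat and a hypothalamus array came from the same rat, and name no separate group fed without restriction. The 3 arrays of a group are described as biological replicates. The p-values and standard errors use the spread between arrays within groups, pooled over all 9 arrays of a tissue. For contrasts between tissues it is pooled over all 18 arrays, and not taken from the compared groups alone.

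The arrays carried the markers of their tissues. Adipoq, the adipocyte hormone adiponectin, had a signal of 17271 to 60117 in fat and 86.0 to 409.7 in hypothalamus, and Snap25, a synaptic protein of neurons, had 52.0 to 1089 in fat and 13279 to 25290 in hypothalamus. The fat arrays were less alike than those of hypothalamus. The fat array RYGB-Fail 3 stood apart, with a median signal of 288 and a median correlation of 0.727 with the rest, whose medians ran from 98.2 to 200.04. Skeletal muscle markers (7 of 7 listed genes on the array) had a mean log2 signal per fat array of 4.58 to 6.50 in Pair-Fed, 6.81 to 8.19 in RYGB-Success and 8.86 to 14.12 in RYGB-Fail. On RYGB-Fail 1, 2 and 3 it was 12.03, 14.12 and 8.86.

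Cytokines of the interleukin-6 class bind a receptor chain such as Il6r and bring it together with the shared signal transducer gp130, the product of Il6st. Receptor-bound JAK kinases then phosphorylate the receptor and STAT proteins, which move to the nucleus and switch on genes that include Cish and the Socs genes, whose products shut the signal down. The leptin receptor uses Jak2 and Stat3 in the same way, and in the hypothalamus this route is known for its part in the control of food intake.

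Cish encodes an SH2-domain inhibitor that is a classic target of STAT5, and its start region is printed because it holds matches to the letters that STAT proteins are known to bind. The sequence is the RefSeq promoter window of the GRCr8 assembly, from 250 bases before to 50 bases after the annotated start, at chr8:116850719-116851018 on the + strand. Capitals mark each match to TTCNNNGAA, a pattern that reads the same on both strands.

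Cish: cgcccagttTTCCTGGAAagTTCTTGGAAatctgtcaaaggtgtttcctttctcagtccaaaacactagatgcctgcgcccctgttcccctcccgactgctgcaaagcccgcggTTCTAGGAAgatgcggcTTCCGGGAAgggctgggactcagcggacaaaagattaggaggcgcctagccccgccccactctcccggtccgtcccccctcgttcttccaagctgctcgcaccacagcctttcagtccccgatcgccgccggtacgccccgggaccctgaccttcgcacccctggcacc

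The 4 matches in the Cish window begin 241, 230, 136 and 119 bases before the start. No matches overlapped each other. Of 33469 promoter windows of the same length, 8.87% held at least 1 match, 0.547% held at least 2, and 2 windows held at least 4. The other 7 listed genes with a window in the table (Jak2, Il6st, Osmr, Il6r, Ptpn1, Stat3 and Socs3) held no match, which says only that these letters were not in those 300 bases.

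The strongest contrast in these genes was between the tissues. In Pair-Fed rats Il6st, Il6r, Cish and 1 of 2 Stat3 probe sets had higher signals in fat than in hypothalamus. Of the 10 tested probe sets, 7 passed at a Benjamini-Hochberg adjusted p under 0.05 in limma and all 7 were higher in fat, where 39.5% of all 21719 probe sets tested passed in either direction and 22.4% passed as higher in fat. The median difference of the 10 probe sets was 1.76 log2, beside 0.27 over all probe sets tested. The Pair-Fed arrays of the tissues did not overlap for 9 of the 10, all higher in fat, where 63.2% of all probe sets did not overlap and 37.6% were higher without overlap. This comparison depends on how arrays of different tissues are scaled to each other. The median over all probe sets was 0.08 after quantile normalization and -0.24 after centring each array on its median, and the share of passing probe sets that were higher in fat went from 56.5% to 49.0% and 37.1%. Of the member probe sets 6 and 5 then passed, all higher in fat. Of all 21719 probe sets 7644 passed after quantile normalization, 3748 of them higher in fat. After median centring 7225 passed, 2683 of them higher in fat. In bulk tissue, fewer cells of a type and less RNA per cell cannot be told apart.

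Il6st, the gp130 chain shared by the interleukin-6 class receptors, was represented by 4 probe sets, and all 4 passed between the tissues. Probe set 1373140_at had Pair-Fed signals of 9776, 9542 and 10662 in fat and 1791, 1299 and 1276 in hypothalamus. All 3 fat arrays lay far above the 3 hypothalamus arrays, and the replicates within each tissue were close together. The difference was 2.80 ± 0.25 log2 (SE, n = 3 arrays per tissue), a 6.94-fold higher signal in fat (95% interval 4.85 to 9.93, limma adjusted p = 6.59e-08). After subtracting the median of all probe sets it was 2.53.

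The other Il6st probe sets differed in the size of the contrast but not in its direction. Probe set 1383489_at had 662.5, 1016 and 961.2 in fat and 76.1, 64.7 and 55.8 in hypothalamus, a difference of 3.73 ± 0.47 log2 (limma adjusted p = 4.22e-06). Its hypothalamus signals were only a little above the filter. Probe set 1371926_at had 5013, 3440 and 5221 in fat and 1294, 1218 and 1375 in hypothalamus, a difference of 1.79 ± 0.27 (limma adjusted p = 2.96e-05). Probe set 1370957_at had 1035, 741.6 and 835.7 in fat and 223.2, 281.8 and 284.8 in hypothalamus, a difference of 1.72 ± 0.37 (limma adjusted p = 0.00107). Fat and hypothalamus did not overlap in any of these 3. With median centring the last probe set no longer passed, at 1.21 log2 and adjusted p = 0.0571.

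Il6r, the chain that binds interleukin-6 itself, had Pair-Fed signals of 377.5, 376.3 and 505.3 in fat and 78.7, 58.4 and 95.4 in hypothalamus. The tissues did not overlap. The difference of 2.45 ± 0.66 log2 was a 5.47-fold higher signal in fat (95% interval 2.11 to 14.2, limma adjusted p = 0.00609).

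Jak2, the kinase bound to the leptin and growth hormone receptors, did not pass between the tissues. Its Pair-Fed signals were 117.8, 77.0 and 140.8 in fat and 55.7, 101.6 and 75.1 in hypothalamus, and the ranges overlapped. The difference was 0.53 ± 0.65 log2, with a 95% interval of -0.84 to 1.90 (limma adjusted p = 0.542), and it changed sign to -0.10 after quantile normalization.

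Stat3, the transcription factor activated by both gp130 and the leptin receptor, had 2 tested probe sets with differences of like size and unequal error. Probe set 1371781_at had 447.2, 346.3 and 537.4 in fat and 204.3, 150.2 and 269.6 in hypothalamus. The tissues did not overlap, and the difference of 1.11 ± 0.33 log2 (2.16-fold) passed with a limma adjusted p of 0.0111. That call was lost after quantile normalization (0.96, adjusted p = 0.0603) and median centring (0.60, adjusted p = 0.356), without hypothalamus Pair-Fed 2 (0.90, adjusted p = 0.0626) and without fat Pair-Fed 3 (0.96, adjusted p = 0.0543). Probe set 1370224_at had 535.8, 374.9 and 303.2 in fat and 190.5, 270.9 and 140.6 in hypothalamus, and its difference of 1.02 ± 0.53 log2 did not pass (limma adjusted p = 0.129).

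Cish, read by probe set 1378586_at, had Pair-Fed signals of 746.7, 202.8 and 329.6 in fat and 62.8, 84.5 and 73.4 in hypothalamus. Every fat array was above every hypothalamus array, with a wide spread in fat. The difference was 2.33 ± 0.55 log2, a 5.04-fold higher signal in fat (95% interval 2.27 to 11.2, limma adjusted p = 0.00239). Ptpn1, the phosphatase PTP1B that removes phosphate from JAK2, had 127.9, 149.4 and 123.8 in fat and 65.8, 62.1 and 76.7 in hypothalamus on probe set 1397916_s_at. These ranges were apart, but the spread of this probe set over all groups was wide, and the difference of 0.97 ± 0.86 log2 did not pass (limma adjusted p = 0.382). The other Ptpn1 probe set, 1368645_at, was under the filter in both tissues. With the filter left off it had the opposite sign, at -1.92 ± 1.10 log2, and did not pass (limma adjusted p = 0.212).

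**Figure D1:**
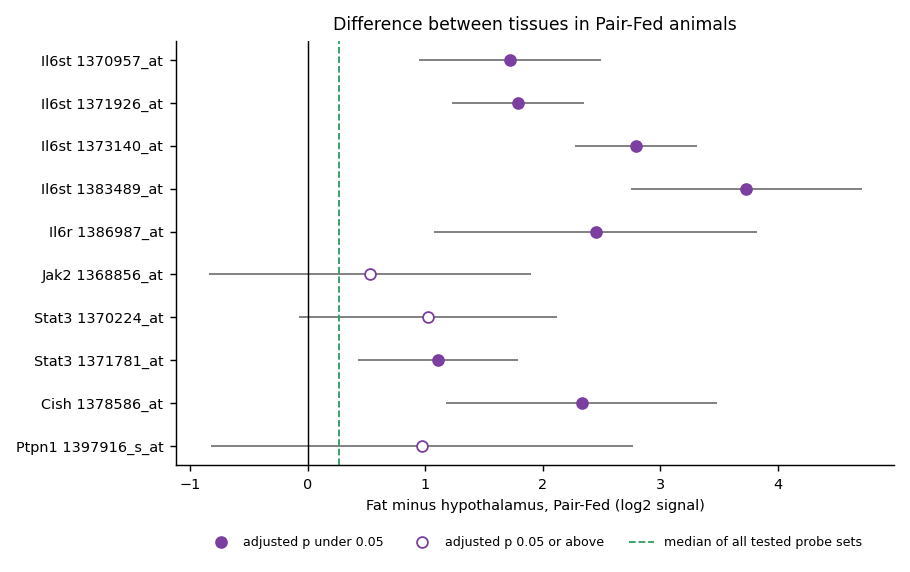
Difference in log2 signal between fat and hypothalamus of Pair-Fed rats for the 10 tested probe sets (x axis), 3 arrays per tissue. Bars are limma 95% intervals, with the spread taken over all 18 arrays. Filled points passed at an adjusted p under 0.05, the solid line is 0 and the dashed line the median of all tested probe sets, 0.27; all 10 points lie to the right of 0, from Jak2 at 0.53 to Il6st 1383489_at at 3.73.

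The tissue contrast was also visible across the bypass groups. For 6 of the 10 probe sets all 9 fat arrays were above all 9 hypothalamus arrays, where 24.8% of all probe sets tested did not overlap and 13% had fat wholly above hypothalamus. These were the 4 of Il6st, Stat3 1371781_at and Il6r. For Il6st 1373140_at the 9 fat arrays had a lowest, median and highest signal of 4893, 9717 and 13211, and the 9 hypothalamus arrays 1276, 1357 and 1791. Cish 1378586_at had 194.5, 382.0 and 1170 in fat and 48.1, 84.5 and 211.1 in hypothalamus, so 1 hypothalamus array reached into the fat range. Some marker lists of other cells of fat were higher on all fat arrays than on all hypothalamus arrays. Fibroblast markers (6 of 6 on the array) had a mean log2 signal of 11.59 to 13.93 in fat and 7.60 to 8.75 in hypothalamus. Macrophage and microglia markers (8 of 8 on the array) had a mean log2 signal of 8.14 to 10.26 over the fat arrays and 6.53 to 7.42 over those of hypothalamus. Lymphocyte markers (6 of 7 on the array) had 6.04 to 10.36 and 3.68 to 4.87, and endothelial markers (5 of 6) 10.89 to 12.34 and 8.78 to 10.26. Blood markers, at 6.87 to 11.49 in fat and 6.64 to 10.39 in hypothalamus, overlapped between the tissues, as did skeletal muscle and epithelial markers. The part of any of these markers in the higher Il6st, Il6r and Cish signals was not tested.

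**Figure D2:**
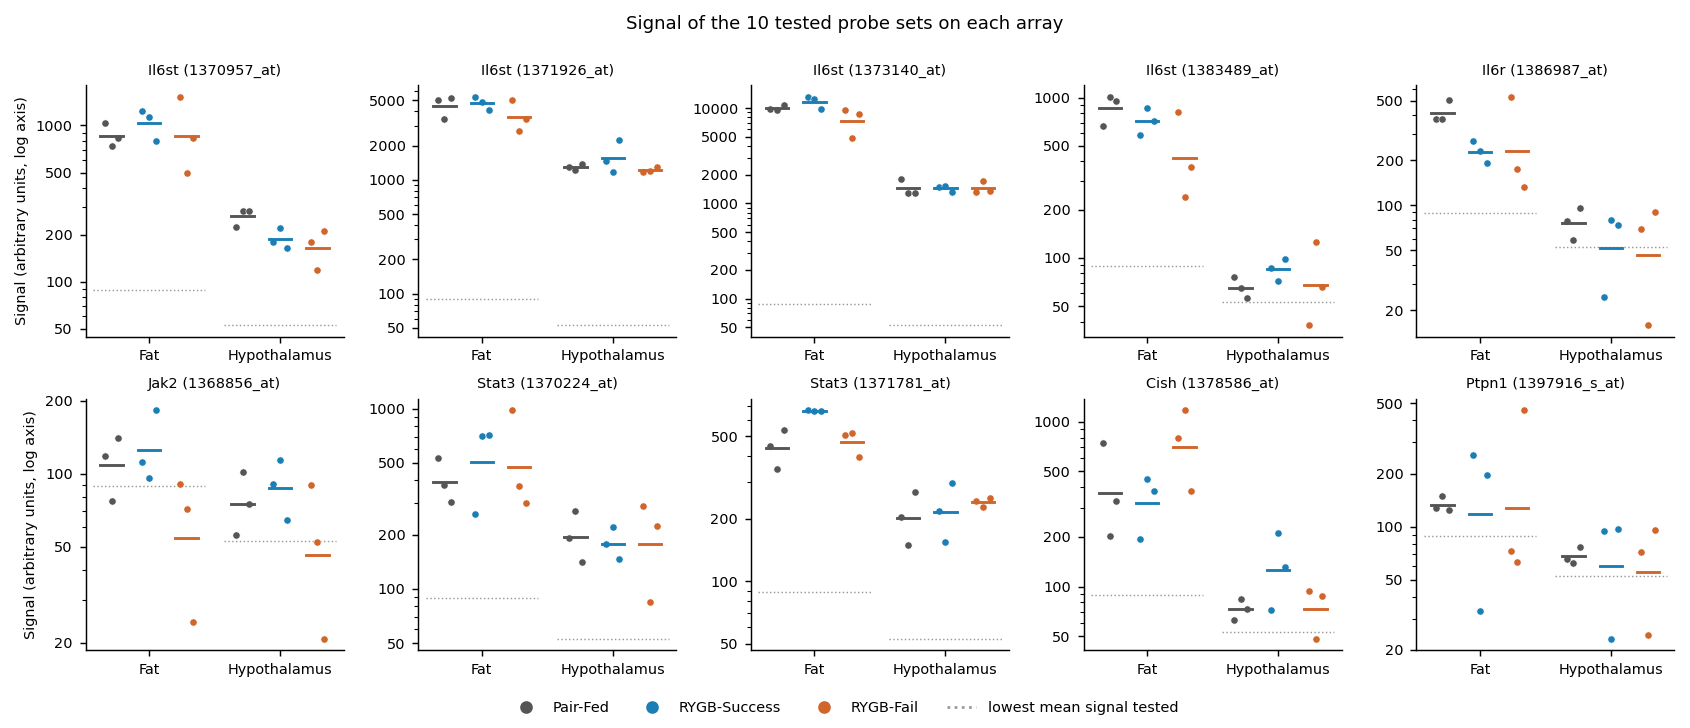
Signal on each array (y axis, log scale, arbitrary units) of the 10 tested probe sets in fat and hypothalamus, with 1 point per array, coloured by group, a bar at the geometric mean of each group and a dotted line at the lowest mean signal tested in that tissue. The 4 Il6st panels show fat wholly above hypothalamus, while Jak2 and Ptpn1 overlap and reach below the dotted line in both tissues.

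Between the treatment groups no member probe set passed in either tissue. In fat limma called 0 of the 10 probe sets at an adjusted p under 0.05 in each of the 3 pairwise comparisons and in that of both bypass groups with Pair-Fed, where 0% of all 18625 probe sets tested were called. Of the 30 pairwise tests on member probe sets in fat 2 had an unadjusted p under 0.05, both on Il6st. Over all probe sets that share was 4.86% (905) for RYGB-Success against Pair-Fed, 2.69% (501) for RYGB-Fail against Pair-Fed, 5.69% (1060) for RYGB-Success against RYGB-Fail and 3.7% (689) for both bypass groups against Pair-Fed. The estimates ran from -1.13 to 1.21 log2 with standard errors of 0.29 to 0.92, so that differences of this size were not distinguishable from the spread between arrays. Comparisons that share a group, such as the 2 that use Pair-Fed, share its arrays and are not independent.

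The Il6st signal in fat was lowest in RYGB-Fail on the brightest probe set. For 1373140_at the fat signals were 9776, 9542 and 10662 in Pair-Fed, 13211, 12562 and 9717 in RYGB-Success and 9586, 4893 and 8678 in RYGB-Fail. Every RYGB-Success array was above every RYGB-Fail array, by a narrow margin between the nearest pair. The difference between those groups was 0.66 ± 0.29 log2 (unadjusted p = 0.0397, limma adjusted p = 0.853), and leaving out 1 array at a time gave 0.36 to 0.85. The lowest was without RYGB-Fail 2, the array with the most skeletal muscle marker signal (14.12), and the value without RYGB-Fail 3 was 0.78 ± 0.29 (adjusted p = 0.138). RYGB-Success minus Pair-Fed was 0.23 ± 0.29 and RYGB-Fail minus Pair-Fed -0.43 ± 0.29, neither of which passed.

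Probe set 1383489_at of Il6st had 662.5, 1016 and 961.2 in Pair-Fed fat, 588.5, 864.2 and 712.2 in RYGB-Success and 818.7, 241.4 and 370.3 in RYGB-Fail. RYGB-Fail 2 and 3 were the lowest of the 9 arrays, and RYGB-Fail 1 lay within the range of the other groups. RYGB-Fail minus Pair-Fed was -1.05 ± 0.45 log2 (unadjusted p = 0.0364, limma adjusted p = 1.00), and leaving out 1 array at a time gave -1.53 to -0.65. The smallest size was without RYGB-Fail 2, and the part of the muscle markers in the Il6st values was not tested. The 2 remaining Il6st probe sets had RYGB-Success minus RYGB-Fail differences of 0.40 ± 0.30 (1371926_at) and 0.28 ± 0.41 (1370957_at), and the latter turned to -0.02 with median centring and -0.11 without RYGB-Fail 2. The former was 0.20 without that array.

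Il6r in fat had 377.5, 376.3 and 505.3 in Pair-Fed, 269.5, 229.2 and 190.1 in RYGB-Success and 531.0, 175.3 and 133.2 in RYGB-Fail. All RYGB-Success arrays were below all Pair-Fed arrays, and RYGB-Fail spanned the whole range. RYGB-Success minus Pair-Fed was -0.87 ± 0.51 log2, with a 95% interval of -1.99 to 0.25 (limma adjusted p = 0.975). Stat3 1371781_at had 447.2, 346.3 and 537.4 in Pair-Fed, 666.1, 659.8 and 658.8 in RYGB-Success and 509.9, 519.2 and 395.5 in RYGB-Fail. Here the 3 RYGB-Success arrays were nearly equal and above the 6 others, and the difference from Pair-Fed was 0.60 ± 0.33 log2 (limma adjusted p = 0.975). For RYGB-Success against Pair-Fed these were the 2 of 10 member probe sets whose groups did not overlap, 1 in each direction, where 18.6% of all probe sets tested did not overlap, 10.9% as higher and 7.69% as lower. Stat3 1370224_at had 535.8, 374.9 and 303.2 in Pair-Fed, 261.5, 702.4 and 712.5 in RYGB-Success and 978.0, 370.3 and 300.6 in RYGB-Fail, and did not show the separation of the other Stat3 probe set.

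Jak2 in fat had 117.8, 77.0 and 140.8 in Pair-Fed, 111.5, 95.9 and 182.6 in RYGB-Success and 90.6, 71.6 and 24.3 in RYGB-Fail. On 3 of the 9 arrays the Jak2 signal was below the lowest mean signal tested, 88.9. The lowest value was on RYGB-Fail 3, the fat array that stood apart in median signal and correlation. RYGB-Success minus RYGB-Fail was 1.21 ± 0.76 log2 (limma adjusted p = 0.895), and 0.63 ± 0.55 without that array, which had the lowest muscle marker signal of its group (8.86). For RYGB-Success against RYGB-Fail 3 of 10 member probe sets did not overlap (Jak2, Stat3 1371781_at and Il6st 1373140_at, all higher in RYGB-Success), where 7.87% of all probe sets tested did not overlap and 5.26% were higher without overlap. For RYGB-Fail against Pair-Fed 0 of 10 were apart, where the share over all probe sets was 6.9%.

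Among the inhibitors, Cish 1378586_at in fat had 746.7, 202.8 and 329.6 in Pair-Fed, 194.5, 449.9 and 382.0 in RYGB-Success and 792.7, 1170 and 380.3 in RYGB-Fail. The 2 highest arrays were RYGB-Fail 2 and 1, and all groups overlapped. The skeletal muscle markers had the same order within RYGB-Fail, at 14.12, 12.03 and 8.86 on arrays 2, 1 and 3, and their part in the Cish signal was not tested. RYGB-Success minus RYGB-Fail was -1.13 ± 0.57 log2 with a 95% interval of -2.37 to 0.11 (limma adjusted p = 0.895), and leaving out 1 array at a time gave -1.58 to -0.77. The largest size was without RYGB-Fail 3 (-1.58 ± 0.55, adjusted p = 0.113). Ptpn1 1397916_s_at had 127.9, 149.4 and 123.8 in Pair-Fed, 254.3, 33.2 and 195.5 in RYGB-Success and 73.1, 62.9 and 455.4 in RYGB-Fail. Its extremes in fat were RYGB-Success 2 and RYGB-Fail 3, its standard error was 0.92, and no difference between groups could be read from it.

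Cell type markers also varied over the fat arrays. Beside the muscle markers, fibroblast markers (6 of 6) had a mean log2 signal of 13.32 to 13.93 in Pair-Fed, 11.59 to 12.91 in RYGB-Success and 12.06 to 13.54 in RYGB-Fail. Epithelial markers (7 of 7) had 5.11 to 5.44, 5.21 to 9.76 and 4.25 to 7.27, and blood markers (4 of 5) 7.98 to 8.61, 9.03 to 11.49 and 6.87 to 8.64. Adipocyte markers (8 of 8) overlapped between RYGB-Fail and both other groups, at 12.04 to 12.49 in Pair-Fed, 11.40 to 12.06 in RYGB-Success and 11.05 to 12.61 in RYGB-Fail. Their part in the fat values of Il6st, Il6r, Jak2, Stat3, Cish and Ptpn1 was not tested.

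In hypothalamus limma also called 0 of the 10 member probe sets in every comparison. Over all probe sets it called 0.0107% for RYGB-Success against Pair-Fed, 0% for RYGB-Fail against Pair-Fed, 0.00537% for RYGB-Success against RYGB-Fail and 0% for both bypass groups against Pair-Fed. Of the 30 pairwise tests on members 1 had an unadjusted p under 0.05, where the shares over all probe sets were 13.1%, 2.39% and 6.01% for the pairwise comparisons and 7.74% for both bypass groups. The estimates ran from -0.71 to 0.92 log2, with standard errors of 0.22 to 0.70.

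That test was on Il6st 1370957_at, whose hypothalamus signals were 223.2, 281.8 and 284.8 in Pair-Fed, 179.3, 221.2 and 164.5 in RYGB-Success and 180.0, 118.2 and 212.0 in RYGB-Fail. All 6 bypass arrays were below all 3 Pair-Fed arrays, the nearest pair being almost equal. Where both bypass groups were set against Pair-Fed, this was the 1 of 10 member probe sets without overlap, beside 3.65% of all probe sets tested and 1.2% as lower. It was also the 1 of 10 for RYGB-Success against Pair-Fed (18% of all, 7.28% as lower) and for RYGB-Fail against Pair-Fed (9.18%, 3.36% as lower). RYGB-Fail minus Pair-Fed was -0.66 ± 0.30 log2 (unadjusted p = 0.0440, limma adjusted p = 1.00) and both bypass groups minus Pair-Fed -0.57 ± 0.26 (adjusted p = 0.634). Without RYGB-Fail 2 the first of these was -0.42. On the same arrays 2 marker lists separated all 6 bypass arrays from Pair-Fed, in the opposite direction. Choroid plexus markers (3 of 3) had a mean log2 signal of 7.17 to 8.41 in Pair-Fed, 8.53 to 9.18 in RYGB-Success and 8.72 to 9.01 in RYGB-Fail, and hypothalamic neuropeptide markers (8 of 9) 7.98 to 8.47, 8.84 to 10.12 and 8.73 to 9.25. Their part in the Il6st value was not tested. The 3 other Il6st probe sets did not share this pattern. For RYGB-Fail minus Pair-Fed they gave -0.09 ± 0.24 (1371926_at), 0.02 ± 0.22 (1373140_at, -0.09 with median centring) and 0.06 ± 0.49 (1383489_at).

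Il6st 1373140_at was the steadiest member in hypothalamus. It had 1791, 1299 and 1276 in Pair-Fed, 1492, 1528 and 1333 in RYGB-Success and 1322, 1738 and 1357 in RYGB-Fail. The 3 groups overlapped, and RYGB-Success lay inside the range of both others. The 95% interval of RYGB-Success minus RYGB-Fail was -0.48 to 0.45 log2, which bounds the difference without showing that the groups are alike. Stat3 1371781_at had 204.3, 150.2 and 269.6 in Pair-Fed, 217.8, 154.2 and 298.2 in RYGB-Success and 244.4, 227.6 and 253.1 in RYGB-Fail. RYGB-Fail lay inside the range of both other groups, and the estimates ran from -0.16 to 0.26 log2.

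Cish 1378586_at in hypothalamus had 62.8, 84.5 and 73.4 in Pair-Fed, 71.9, 211.1 and 131.6 in RYGB-Success and 94.4, 48.1 and 87.4 in RYGB-Fail. The 2 highest values were RYGB-Success arrays, and the third RYGB-Success array was within the range of Pair-Fed. RYGB-Success minus Pair-Fed was 0.79 ± 0.47 log2 (limma adjusted p = 0.491), and 0.41 without RYGB-Success 2 and 1.19 without RYGB-Success 1. Jak2 had 55.7, 101.6 and 75.1 in Pair-Fed, 90.6, 113.9 and 64.3 in RYGB-Success and 89.6, 52.3 and 20.8 in RYGB-Fail. RYGB-Fail 3 was the lowest array, and RYGB-Success minus RYGB-Fail was 0.92 ± 0.56 log2 (limma adjusted p = 0.784), and 0.35 without that array. Il6r had 15.9 to 95.4 and Ptpn1 1397916_s_at 23.1 to 97.5 over the 9 arrays, with 2 arrays each below the lowest mean signal tested and all groups overlapping.

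**Figure D3:**
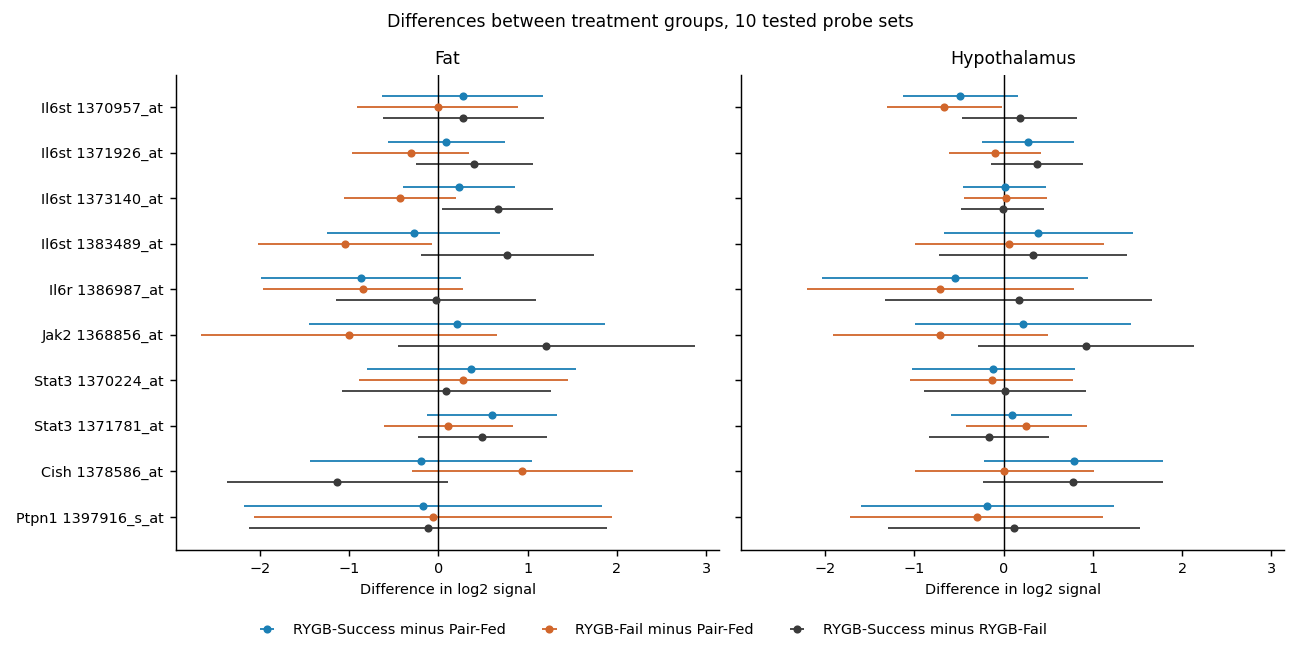
Differences in log2 signal (x axis) between treatment groups for the 10 tested probe sets in fat and in hypothalamus, 3 arrays per group. Bars are limma 95% intervals, with the spread taken over the 9 arrays of a tissue. In fat 2 of 30 intervals exclude 0, those of Il6st 1373140_at for RYGB-Success minus RYGB-Fail and of Il6st 1383489_at for RYGB-Fail minus Pair-Fed; in hypothalamus 1 of 30 does, that of Il6st 1370957_at for RYGB-Fail minus Pair-Fed.

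The test of whether a group difference in fat departed from that in hypothalamus also called 0 of the 10 probe sets in each of 3 comparisons, where 0% of 15531 probe sets were called. The lowest p was that of Cish 1378586_at, whose RYGB-Success minus RYGB-Fail difference was -1.13 in fat and 0.78 in hypothalamus. The gap of -1.91 ± 0.76 log2 had a 95% interval of -3.50 to -0.33 (unadjusted p = 0.0208, limma adjusted p = 0.732). Without the fat array RYGB-Fail 3 it was -2.36 ± 0.73 (adjusted p = 0.117). At an unadjusted p under 0.05 this comparison held 6.45% of all probe sets.

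The SOCS probe sets gave signals near the low end of the arrays, where signals of this kind scatter widely on a log scale. Socs2, an inhibitor best known for restraining growth hormone signalling, had fat signals of 32.2, 17.8 and 12.3 in Pair-Fed, 131.9, 27.4 and 116.0 in RYGB-Success and 67.3, 34.1 and 90.6 in RYGB-Fail. RYGB-Fail was above Pair-Fed on all arrays, whereas 1 RYGB-Success array lay within the Pair-Fed range. Of the probe sets tested, which do not include Socs2, 6.9% did not overlap between RYGB-Fail and Pair-Fed in either direction. In hypothalamus Socs2 ran from 1.08 to 66.2, with 8 of 9 arrays below the lowest mean signal tested.

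Socs3, the inhibitor that binds gp130 and the leptin receptor, had fat signals of 36.8, 53.0 and 2.56 in Pair-Fed, 11.4, 30.4 and 16.9 in RYGB-Success and 1.22, 6.58 and 122.3 in RYGB-Fail. The lowest and the highest value were both RYGB-Fail arrays, and no order of the groups could be read. In hypothalamus it ran from 1.15 to 47.3. The low probe set of Cish, 1388233_at, had 6.62 to 163.5 in fat and 2.34 to 51.9 in hypothalamus. That of Ptpn1, 1368645_at, had 3.00 to 97.3 and 13.1 to 96.2. With the filter left off, the 14 probe sets had 0 calls in every group comparison. Socs2 in fat then gave 1.97 ± 1.05 log2 for RYGB-Success minus Pair-Fed (unadjusted p = 0.0806, limma adjusted p = 0.986) and 1.63 ± 1.05 for RYGB-Fail minus Pair-Fed (unadjusted p = 0.141).

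**Figure D4:**
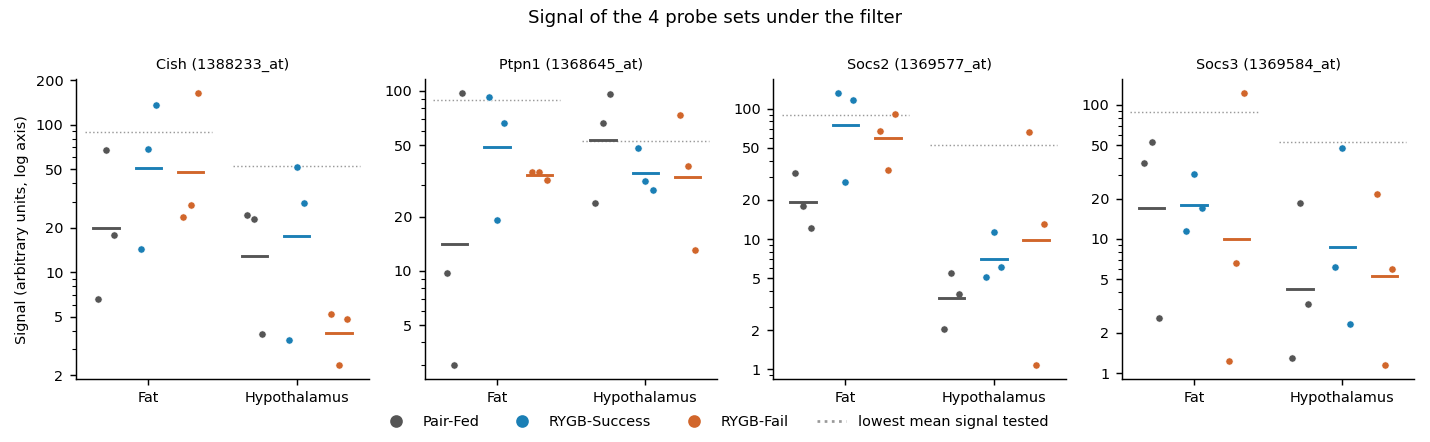
Signal on each array (y axis, log scale, arbitrary units) of the 4 probe sets that did not reach the filter, with 1 point per array, a bar at the geometric mean of each group and a dotted line at the lowest mean signal tested. Socs3 spans 1.22 to 122.3 in fat, and Socs2 in fat is lowest in the 3 Pair-Fed arrays and 1 RYGB-Success array.

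The wider pathway was described by 5 lists of 75 further genes, of which 72 were on the array, with 1 probe set per gene. None of the tested genes passed in limma in a group comparison, 0 of 47 in fat and 0 of 42 in hypothalamus. For RYGB-Success against Pair-Fed 5 had an unadjusted p under 0.05 in each tissue. The share over all probe sets was 4.86% in fat and 13.1% in hypothalamus. In fat the count was 2 for RYGB-Fail against Pair-Fed, 4 for RYGB-Success against RYGB-Fail and 2 for both bypass groups against Pair-Fed. In hypothalamus these counts were 1, 0 and 2, in the same order. The shares over all probe sets for these comparisons are given above. Between the tissues in Pair-Fed rats 34 of 53 passed, 28 higher and 6 lower in fat. Of all probe sets 39.5% passed and 22.4% passed as higher in fat. The test took genes that reached the filter in either tissue. A gene that reached it in only 1 tissue entered through its higher signal there, so the filter largely set its direction. Among the genes that passed, this held for Ghr, Il4r, Stat4, Timp1, Myc, Bcl3, Lrg1 and Lcn2 in fat and for Gfap in hypothalamus.

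Most ligands could not be read. Of 11 on the array only Cntf and Ctf1 passed the filter. Lep, which encodes leptin and is known as a product of adipocytes, had 8.19 to 190.8 in fat, and Il6 had 3.54 to 373.2. Ctf1, which encodes the gp130 ligand cardiotrophin-1, was higher in fat by 1.53 ± 0.37 log2 (limma adjusted p = 0.00289), while Cntf, the ciliary neurotrophic factor, gave -0.86 ± 0.42 and did not pass.

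Of 12 receptor genes tested between the tissues 6 passed as higher in fat and 0 as lower. The median of the 12 was 1.44 log2, and by direction alone 9 of them were higher in fat. Cntfr, above the filter in hypothalamus only, gave -1.80 ± 0.73 without passing (limma adjusted p = 0.0583). Its Pair-Fed signals in fat were all below those in hypothalamus. The largest difference was that of the growth hormone receptor Ghr at 5.94 ± 0.55. Its hypothalamus signals ran from 9.52 to 92.7 and their mean was below the filter. Il10rb (2.70), Il2rg (2.53), Ifngr1 (2.36), Il4r (2.20, above the filter in fat only) and Il11ra1 (1.18) also passed. The leptin receptor Lepr did not, at 0.91 ± 0.71. Of 6 kinases and STATs 5 passed as higher in fat. These were Stat4 (3.70, above the filter in fat only), Stat5a (2.27), Tyk2 (2.19), Stat2 (1.13) and Jak1 (1.00). Stat6 was at 0.96 ± 0.59 without passing.

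The inhibitors and adaptors were divided, with 5 of 15 passing as higher in fat, 5 as lower, and a median of 0.07 log2. The phosphatases Ptpn6 (2.18) and Ptpn2 (1.15), with Sh2b3 (2.02), Irs1 (1.96) and Pias1 (1.27), were higher in fat. Lower in fat were Socs7 (-1.69), the phosphatase gene Ptpn11 (-1.48), Irs2 (-1.03), Socs5 (-0.9999) and the adaptor gene Grb2 (-0.78). Of 18 STAT target genes 11 passed as higher in fat, led by Igf1 (5.64 ± 0.41), Timp1 (5.06 ± 1.13), Bcl3 (4.65), Lrg1 (4.46) and Lcn2 (4.27). Among these named genes only Igf1 was above the filter in both tissues. In hypothalamus Timp1 had 4.63 to 73.5, Bcl3 3.35 to 136.7, Lrg1 7.76 to 186.3 and Lcn2 3.05 to 92.8. The 1 that passed as lower was Gfap (-6.69 ± 0.59), the filament protein of astrocytes, whose fat signals of 3.07 to 71.8 were all below the filter. By direction alone 14 of the 18 were higher in fat. A2m, above the filter in hypothalamus only, gave -1.98 ± 1.02 without passing, and its Pair-Fed signals in fat were all below those in hypothalamus.

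In fat the lowest p in limma's F test over the 3 groups among the listed genes were those of Igf1, Pim3 and Ghr, none of which passed after adjustment. They were chosen by that test, so the separation of their groups is no further support. Ghr 1373803_a_at, the growth hormone receptor, had 3170, 3040 and 4576 in Pair-Fed, 2428, 1569 and 1417 in RYGB-Success and 2150, 2410 and 2127 in RYGB-Fail. All 6 bypass arrays were below all 3 Pair-Fed arrays. RYGB-Success minus Pair-Fed was -1.01 ± 0.30 log2 (unadjusted p = 0.00590, limma adjusted p = 0.697) and RYGB-Fail minus Pair-Fed -0.67 ± 0.30 (adjusted p = 1.00).

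Igf1, the growth factor induced through Ghr and STAT5, had 13348, 23179 and 14842 in Pair-Fed, 8039, 9527 and 3030 in RYGB-Success and 11058, 6889 and 8356 in RYGB-Fail. Again all bypass arrays were below all Pair-Fed arrays, which held for 2% of all probe sets in fat in either direction. RYGB-Success minus Pair-Fed was -1.44 ± 0.41 log2 (unadjusted p = 0.00436, limma adjusted p = 0.687) and RYGB-Fail minus Pair-Fed -0.95 ± 0.41 (adjusted p = 1.00). Without RYGB-Success 3 the first was -0.93, and that array had the highest lymphocyte (10.36) and blood (11.49) marker means of the fat arrays. The fibroblast markers were lower on the RYGB-Success arrays than on the Pair-Fed arrays as well, and the part of these markers in the Ghr and Igf1 values was not tested.

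Pim3, a survival kinase induced by STATs, had fat signals of 2142, 3021 and 3895 in Pair-Fed, 4052, 6780 and 4803 in RYGB-Success and 3253, 2028 and 1524 in RYGB-Fail. RYGB-Success was above both other groups on every array. Of all probe sets tested 10.9% were higher without overlap against Pair-Fed and 5.26% against RYGB-Fail. RYGB-Success minus RYGB-Fail was 1.24 ± 0.35 log2 without passing. Lcn2, an acute-phase protein gene, had 5625 and 3253 on RYGB-Success 2 and 3 and between 10.1 and 349.5 on the other 7 fat arrays. Epithelial markers were also highest on RYGB-Success 2 and 3, at a mean log2 signal of 9.76 and 9.11, with at most 7.27 on the other 7, and their part in the Lcn2 signal was not tested.

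In hypothalamus Vegfa, which encodes a vessel growth factor, had 640.4, 593.5 and 484.6 in Pair-Fed, 1018, 1387 and 936.5 in RYGB-Success and 924.2, 904.7 and 751.5 in RYGB-Fail. All 6 bypass arrays were above all Pair-Fed arrays, where 3.65% of all probe sets tested did not overlap in either direction. Vegfa was named for the lowest F test p of its list, so this separation is no further support. RYGB-Success minus Pair-Fed was 0.95 ± 0.23 log2 (unadjusted p = 0.00117, limma adjusted p = 0.215). Pias2, an inhibitor of activated STATs, gave 0.77 ± 0.23 for the same comparison, from 1540, 1359 and 1398 in Pair-Fed to 2236, 2003 and 3234 in RYGB-Success. Blood markers on these arrays had a mean log2 signal of 6.64 to 7.57 in Pair-Fed, 8.77 to 10.39 in RYGB-Success and 6.66 to 8.22 in RYGB-Fail. The choroid plexus and hypothalamic neuropeptide markers given above were higher on all 6 bypass arrays than on all Pair-Fed arrays, as Vegfa was. The part of these markers in either value was not tested.

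**Figure D5:**
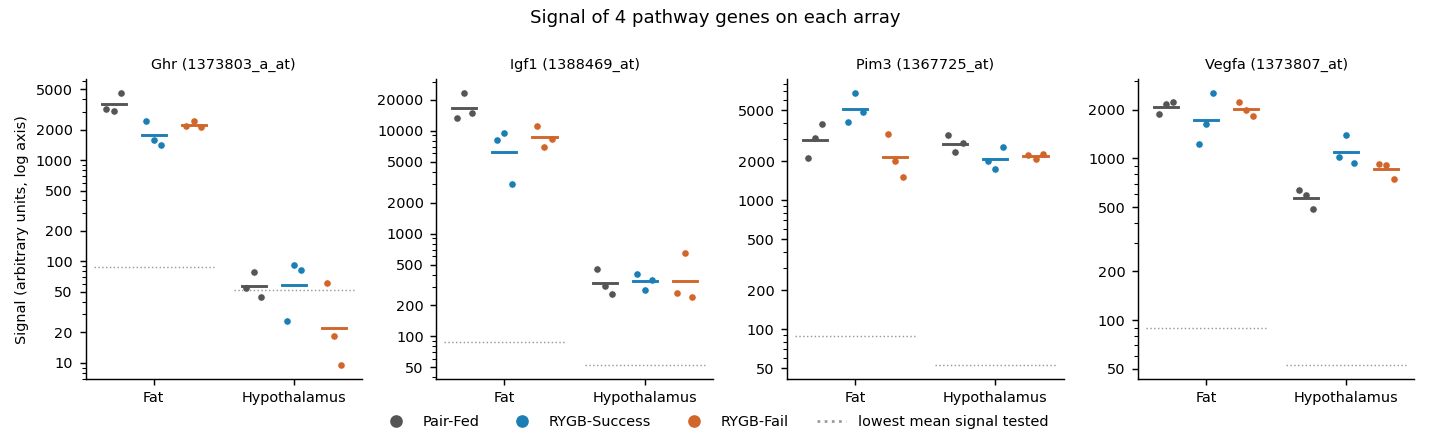
Signal on each array (y axis, log scale, arbitrary units) of Ghr, Igf1, Pim3 and Vegfa in fat and hypothalamus, with 1 point per array, a bar at the geometric mean of each group and a dotted line at the lowest mean signal tested. In fat the Ghr and Igf1 points of both bypass groups lie below those of Pair-Fed, and in hypothalamus the Vegfa points of both lie above. These genes were named for a low F test p over the same groups.

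The patterns nearest to a member were found by Pearson correlation of log2 signal over the 9 arrays of a tissue, as a description with no test. The member gene with the lowest p in limma's F test over the 3 groups, reading each gene by its brightest probe set, was Il6st in fat (1373140_at, limma adjusted p = 0.989). Among 13222 probe sets with a symbol the nearest were Arid2 (r = 0.974), Podxl (0.964) and Il1r1 (0.962). In hypothalamus it was Cish (1378586_at, limma adjusted p = 0.763), with Tepsin (r = 0.951), Pex16 (0.942) and Trmt2a (0.940) nearest among 13641. The arrays share their scaling and, in fat, the marker shifts given above.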

How the data were processed

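RNA was isolated on Qiagen RNeasy columns, amplified with NuGEN WT-Ovation and biotin-labelled, per the labels' protocols. The authors deposited 1 linear intensity per probe set and array. The submitters' processing notes name MAS5 and GCOS, whose versions and settings are not given in the sources used here. On every array the mean after trimming 2% at each end was 499.98 to within rounding, so the authors had scaled the intensities. Their trimmed mean is equal, but their median is not. The number of arrays limits precision. Detection calls were not used.

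Of 31099 probe sets 57 controls were left out, 20826 had a single symbol, 436 several and 9780 none. Values were log2 of the deposited intensity. In each tissue the 60% of probe sets with the highest mean log2 intensity (18625) entered a linear model over its 9 arrays, using limma 3.58.1 under R 4.3.3 with lmFit and a trended eBayes. The tissue contrast used all 18 arrays and the 21719 probe sets that passed in either tissue, and tissue differences of group changes the 15531 that passed in both. Tests were 2-sided with Benjamini-Hochberg adjustment over all probe sets tested and a threshold of 0.05. Errors are standard errors. Python 3.11.15, pandas 2.3.3 and matplotlib 3.10.9 made tables and plots. The limma step was tested on simulated data.

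The members, gene lists and comparisons were chosen with earlier results of these data known. All members were named. List genes were named where they passed, or as up to 4 per list and tissue with the lowest F test p; the brightest probe set stood for a gene. All 14 member probe sets matched a RefSeq gene by identifier. Alternatives were a pseudocount, no filter, the upper 40%, quantile normalization, median centring, array weights, a replicate block, leaving out each array and fitting only the compared groups. Replicate numbers were taken from the titles. Deviations of same-numbered arrays within a tissue correlated at -0.16 to 0.29, and those of fat and hypothalamus arrays with the same treatment and number at -0.06 to 0.20, over 0.1 in 4 of 9 pairs, so the numbers were not treated as pairs. A fit that pairs the tissues by treatment and number was added after seeing the data.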

Additional observations from a re-analysis of the deposited data

How the results depend on the processing

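No member probe set passed in a group comparison within fat (58 fits), within hypothalamus (58 fits) or in a tissue difference of group changes (60 fits) under any alternative run. The count between the tissues stayed at 5 to 7. The main fit tested 10 member probe sets, and with the filter left off 7 of 14 passed. When arrays were left out in turn the count was 6 to 7 of 10. With the replicate number as a block it was 7 of 10, the group comparisons gave 0, and Il6st 1373140_at for RYGB-Success minus RYGB-Fail in fat was 0.66 ± 0.28 log2 (limma adjusted p = 0.715); the numbers were not shown to pair arrays. A block by treatment and number, which takes fat and hypothalamus arrays as pairs and was chosen after seeing the data, also gave 7 of 10 between the tissues, with Stat3 1371781_at at 1.11 ± 0.34 log2 (limma adjusted p = 0.0210), and 0 for the tissue differences of group changes. None of the single estimates that changed sign had passed. With median centring these were Stat3 1370224_at in fat, RYGB-Success minus Pair-Fed (-0.0050), Il6st 1370957_at in fat, RYGB-Success minus RYGB-Fail (-0.021), and Il6st 1373140_at in hypothalamus, RYGB-Fail minus Pair-Fed (-0.088). With array weights they were Il6st 1370957_at for the same difference (-0.051), Ctf1 in fat, RYGB-Fail minus Pair-Fed (-0.0039), and Ptpn1 1397916_s_at in hypothalamus, RYGB-Fail minus Pair-Fed (0.076). With the pseudocount Ptpn1 1397916_s_at in fat, RYGB-Success minus Pair-Fed, became 0.030, and with quantile normalization Jak2 between the tissues became -0.10. Leaving out arrays in turn gave ranges of -0.11 to 0.70 for Il6st 1370957_at and -0.72 to 0.74 for Ptpn1 1397916_s_at in fat. For RYGB-Fail minus Pair-Fed in hypothalamus the ranges were -0.49 to 0.39 for Stat3 1370224_at, -0.10 to 0.18 for Il6st 1373140_at, -1.20 to 0.063 for Il6r and -0.70 to 0.29 for Ptpn1 1397916_s_at. The cause was not tested. Signals near the low end limit what can be read of Socs2, Socs3, Jak2 and Ptpn1. In hypothalamus this also holds for Il6r (2 of 9 arrays below the lowest mean signal tested), Il6st 1383489_at and Cish 1378586_at (1 each).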
